A study of Mus musculus with 12 samples.

Results

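Expression of 10 genes that set the pace of the G1 phase was followed in mouse mammary organoids exposed to rising concentrations of CHIR99021, a compound that inhibits the kinase GSK3 and so raises WNT signalling through β-catenin (CTNNB1). The genes are the transcription factors Myc and Mycn, the D cyclins Ccnd1, Ccnd2 and Ccnd3, and the cyclin-dependent kinase (CDK) inhibitors Cdkn1a, Cdkn1b, Cdkn2a, Cdkn2b and Cdkn2c. They were taken by symbol from a raw count table of 25210 genes, and all 10 were found and passed the filter on low counts. D cyclins bind CDK4 and CDK6, and these kinases phosphorylate the retinoblastoma protein RB, which frees E2F factors to switch on the genes of DNA replication. MYC proteins, with their partner MAX, drive ribosome production and metabolism in growing cells, and Myc and Ccnd1 are textbook targets of WNT signalling. INK4 inhibitors (Cdkn2a, Cdkn2b, Cdkn2c) block CDK4 and CDK6, while CIP/KIP inhibitors (Cdkn1a, Cdkn1b) act on CDK2 complexes and can also hold cyclin D and its kinase together. GSK3 is itself known to mark MYC and cyclin D1 proteins for breakdown, a layer that RNA levels do not show.

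The organoids came from virgin female FVB/N mice aged 8 to 11 weeks, and the labels name no introduced allele. They grew for 7 days in growth-factor-reduced Matrigel and minimal medium. Each of 3 cultures, from 3 animals, was split over 4 treatments, namely the vehicle dimethyl sulfoxide (DMSO) and CHIR99021 at 1, 1.5 and 3 µM. The sample titles also tag the cultures, in the order of their numbers, as "med", "min" and "max", and do not say what these tags mean. Polyadenylated RNA of whole cultures was sequenced, so that each of the 12 libraries mixes all the cells present. Values are counts-per-million (CPM), after TMM scaling of library sizes, which evens out differences in RNA composition, and "n = 3" means 3 cultures. A gene was called when its adjusted p was below 0.05 in edgeR's quasi-likelihood test over 15316 genes.

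Libraries held 10.1 to 24.5 M counts. Axin2, a feedback target of WNT/CTNNB1 signalling, served as the check of the treatment labels. Its mean was 2.75 ± 0.491 CPM in DMSO (SD, n = 3), and 10.9 ± 7.50, 28.6 ± 17.9 and 83.8 ± 42.3 CPM as the dose increased. It rose at 1.5 and 3 µM (adjusted p = 0.00355 and 0.000147), while at 1 µM the adjusted p was 0.222, and 0.00887 with the culture as a block in the model. Markers of luminal and basal mammary cells were detected in every library, but those of other cells were detected too, and their sums differed between doses. The 7 squamous markers, such as Krt1 and Ivl, summed to 64.0 to 78.1 CPM in DMSO and 1869 to 17760 CPM at 3 µM, and 7 of 7 rose at 3 µM. The 7 fibroblast markers summed to 1623, 7367 and 20493 CPM in DMSO of cultures 1, 2 and 3, and to 175, 971 and 4566 CPM at 3 µM. At that dose 0 of 7 were called by edgeR (0 at an unadjusted p below 0.05, and 2 by DESeq2). These fits have no term for the culture, while the sum fell in each of the 3 cultures. The 6 leukocyte markers summed to 263 to 2558 CPM in DMSO and 39.3 to 118 CPM at 3 µM (5 of 6 fell), and the 4 endothelial markers to 217 to 466 and 22.8 to 76.9 CPM (4 of 4 fell). Of 5 luminal markers 3 fell at 3 µM, and of 6 basal markers 3 rose (Krt5, Krt14, Trp63) and 3 fell (Acta2, Myh11, Oxtr). Of all genes 29.9% were called higher and 27.7% lower at that dose. The marker lists are short, and their counts were not tested against these shares. The squamous markers Ivl, Lor and Flg were at 0 in 1 or 2 DMSO libraries, and no other marker of these lists was at 0 in any library. The part of these shifts in the results below was not tested, and in bulk RNA fewer cells of a type and less RNA per cell cannot be told apart.

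By 3 µM the RNA of Myc, Ccnd1 and Cdkn1a had risen 3.41- to 4.17-fold over DMSO, and that of Cdkn2c had fallen 4.05-fold. These 4 genes reached their levels by different routes. In TMM-scaled CPM, each dose had more Myc and less Cdkn2c than the dose before it in all 3 cultures. For Myc in culture 3 the last step depended on that scaling. Ccnd1 overlapped its DMSO level at 1 µM, and Cdkn1a lay within the DMSO range at both 1 and 1.5 µM. The other 6 genes did not pass the test at any dose against DMSO without a term for the culture. With the culture as a block, Ccnd2 fell at 1.5 µM (adjusted p = 0.00283) and Cdkn2b rose at 3 µM (adjusted p = 0.0238).

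At 1 µM, 0 of the 10 genes were called, where 0.242% of all genes tested were. By edgeR's unadjusted p below 0.05 there were 2, Myc and Cdkn2c, and DESeq2 also called 0, with 1 gene given no adjusted p. At 1.5 µM, 3 of 10 were called (Myc, Ccnd1, Cdkn2c), against 27.3% of all genes. At 3 µM it was 4 of 10, with Cdkn1a added, against 57.5% of all genes. With the culture as a block, 1 gene was called at 1 µM (5.61% of all genes), 4 at 1.5 µM (46.7%) and 5 at 3 µM (68.9%). The share of the 10 genes called at 3 µM was thus below that of all genes, and the count is not a result about these genes. Libraries of the treated group lay wholly above or below those of DMSO for 3 of 10 genes at 1 µM (19.4% of all genes), 4 at 1.5 µM (45.6%) and 4 at 3 µM (60.8%).

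**Figure D1:**
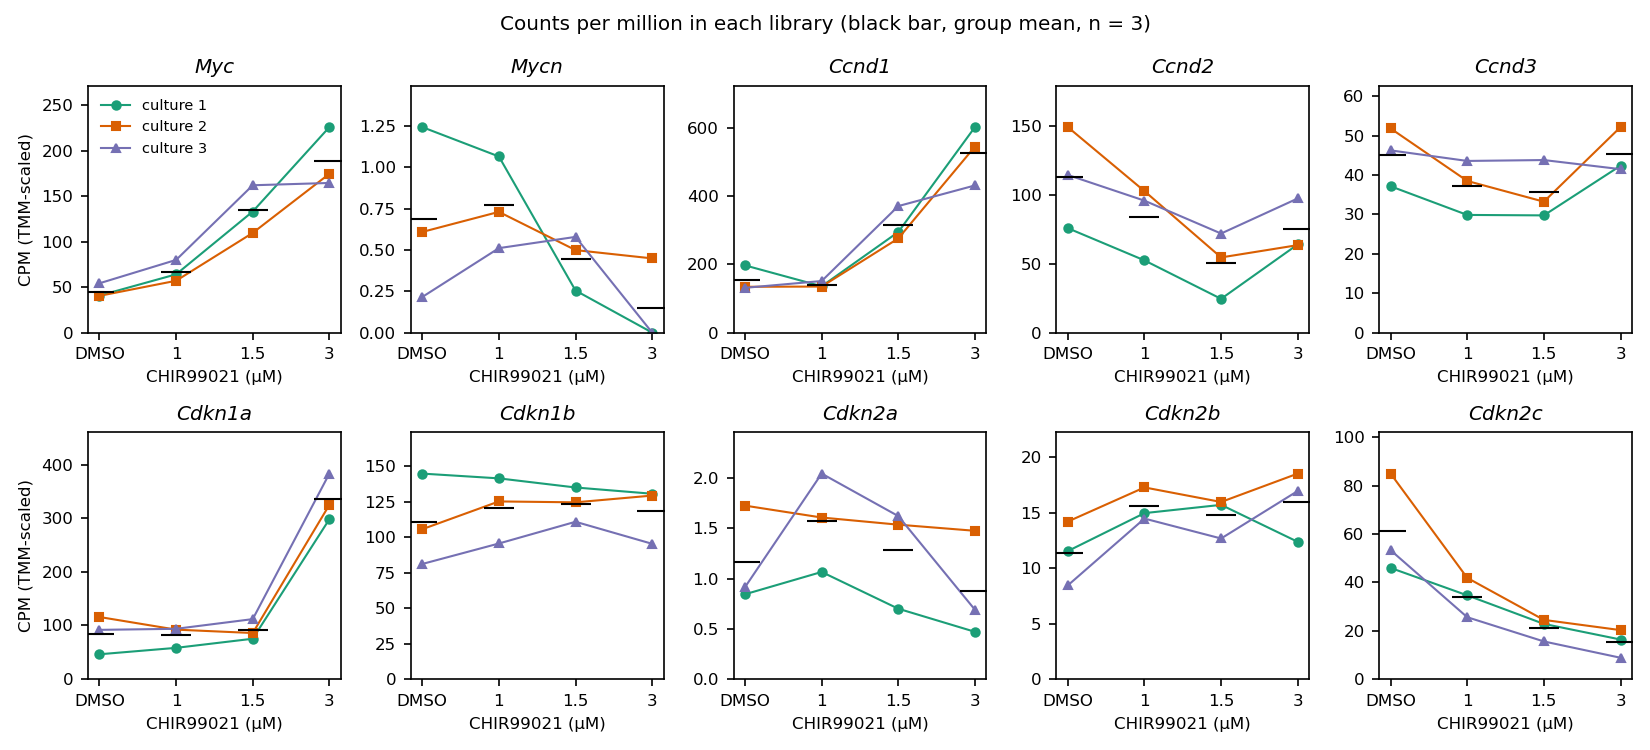
TMM-scaled CPM of the 10 genes (vertical axes, each from 0) against the dose of CHIR99021 (DMSO, 1, 1.5 and 3 µM, evenly spaced), with a coloured line for each of the 3 cultures and a black bar for the group mean. Myc climbs and Cdkn2c descends at every step, Ccnd1 turns upward after 1 µM, and Cdkn1a jumps from 75.3 to 112 CPM at 1.5 µM to 298 to 383 CPM at 3 µM.

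**Figure D2:**
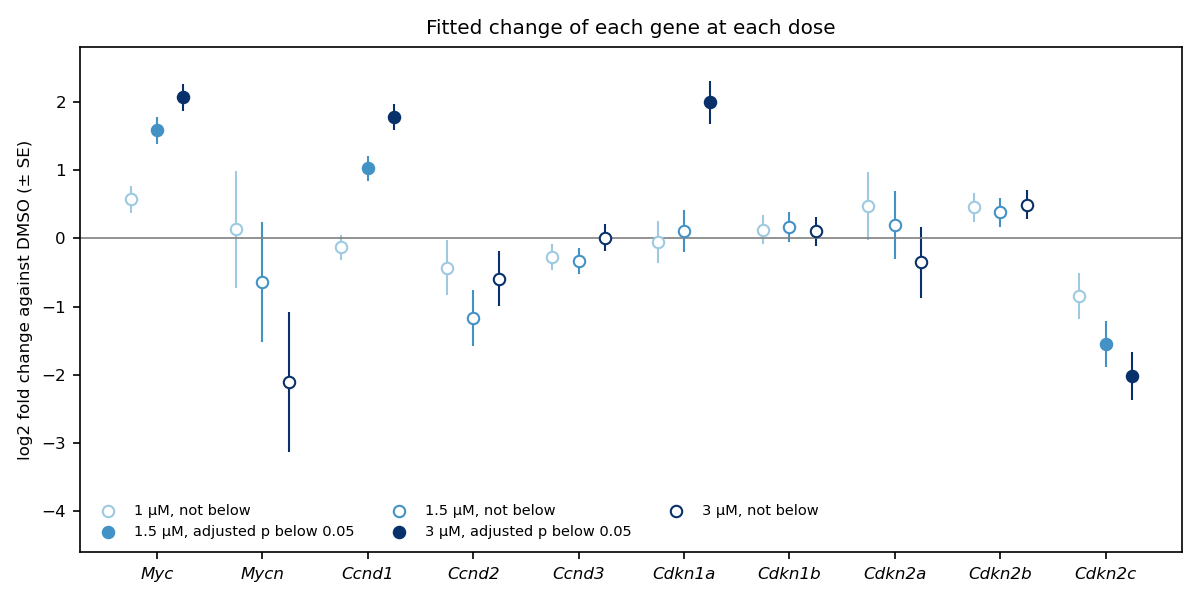
Fitted log2 fold change against DMSO (vertical axis, ± SE) for each gene at 1, 1.5 and 3 µM (light to dark blue), with filled points for an adjusted p below 0.05. Filled points appear at 1.5 and 3 µM for Myc, Ccnd1 and Cdkn2c, and at 3 µM for Cdkn1a.

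Myc (ENSMUSG00000022346, chr15:61985341-61990374 in build GRCm38, as for the genes that follow, plus strand) encodes the growth-promoting transcription factor MYC. In cultures 1, 2 and 3 it was at 40.7, 40.4 and 54.2 CPM in DMSO. At 1 µM it was at 64.0, 57.0 and 79.9 CPM, at 1.5 µM at 133, 110 and 162 CPM, and at 3 µM at 226, 175 and 164 CPM. Every library of each dose lay above every DMSO library, and within each culture each dose exceeded the dose before it. In culture 3 the step from 1.5 to 3 µM was small, from 162 to 164 CPM, and its direction rests on the TMM scaling. The raw counts there were 2797 of 16.6 M at 1.5 µM and 2385 of 15.8 M at 3 µM, a lower share at 3 µM. The log2 fold change was 0.57 ± 0.19 (SE) at 1 µM (adjusted p = 0.288), 1.58 ± 0.20 at 1.5 µM (adjusted p = 0.000624) and 2.06 ± 0.20 at 3 µM (adjusted p = 2.20e-05). Myc thus rose 2.99-fold at 1.5 µM and 4.17-fold at 3 µM, and both calls held when any library or culture was left out.

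The steps between neighbouring doses were tested as well. From 1 to 1.5 µM, 2 of 10 genes were called (5.43% of all genes), Myc with a log2 fold change of 1.01 ± 0.19 (adjusted p = 0.0196) and Ccnd1. With the culture as a block 4 were called in this step (21.9% of all genes), and 4 from 1.5 to 3 µM (46.7%). The Myc call was lost without replicate 1 or 2 at 1 µM, or without replicate 1 or 3 at 1.5 µM, with adjusted p from 0.0502 to 0.0922. It was lost as well without culture 1 (0.217) or culture 2 (0.305). From 1.5 to 3 µM Myc differed by 0.48 ± 0.19 on the log2 scale and was not called (adjusted p = 0.0833). With the culture as a block the adjusted p of this step was 0.0225, and without culture 3 it was 0.0191. Without culture 1 or culture 2 it was 0.433 or 0.347. With library size as the only scaling the step was 0.21 (adjusted p = 0.417). Over the dose range the fitted slope of Myc was 0.71 ± 0.09 log2 units per µM (adjusted p = 7.06e-05), and 4 of 10 genes had a called slope, against 58.2% of all genes.

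Mycn (ENSMUSG00000037169, chr12:12936096-12941914, minus strand), the paralog best known from the nervous system and from progenitor cells, was close to the limit of detection. It had 28, 6 and 4 counts in DMSO, 21, 15 and 9 at 1 µM, 4, 13 and 10 at 1.5 µM, and 0, 7 and 0 at 3 µM. A count of 0 allows up to 0.235 CPM in culture 1 and 0.207 CPM in culture 3, by counting error alone. The groups overlapped, and the log2 fold change of -2.10 ± 1.02 at 3 µM was not called (adjusted p = 0.102). It was called without replicate 2 at 3 µM (adjusted p = 0.00734), the library that holds all the counts of that group. Per kilobase of exon, Myc stood at 16.6 CPM and Mycn at 0.209 CPM in DMSO, so Myc made up nearly all of the RNA of this pair.

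Ccnd1 (ENSMUSG00000070348, chr7:144929931-144939869, minus strand) encodes cyclin D1, the D cyclin on which the mammary gland is known to depend. It was at 197, 134 and 131 CPM in DMSO and at 136, 135 and 151 CPM at 1 µM in cultures 1, 2 and 3. At 1.5 µM it was at 295, 276 and 371 CPM, and at 3 µM at 603, 546 and 432 CPM. The DMSO and 1 µM libraries overlapped, while all libraries of the upper doses lay above both groups. The log2 fold change was -0.13 ± 0.18 at 1 µM (adjusted p = 0.843), 1.03 ± 0.18 at 1.5 µM (adjusted p = 0.00329) and 1.77 ± 0.19 at 3 µM (adjusted p = 3.68e-05), which is 3.41-fold. Without culture 2 the call at 1.5 µM was lost (adjusted p = 0.0964).

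Ccnd1 rose by 1.16 ± 0.19 log2 units from 1 to 1.5 µM (adjusted p = 0.0102) and by 0.75 ± 0.18 from 1.5 to 3 µM (adjusted p = 0.0135). From 1.5 to 3 µM 2 of 10 genes were called, Ccnd1 and Cdkn1a, against 29.7% of all genes. The first step was not called without replicate 2 at 1 µM (adjusted p = 0.0572), culture 1 (0.126) or culture 2 (0.301). The second was not called without the 1.5 µM library of culture 2 (0.0550), the 3 µM library of culture 1 (0.0577), all of culture 1 (0.101) or culture 2 (0.215), or with library size as the only scaling (adjusted p = 0.0735). Exons of Ccnd1 overlap LTO1 on the opposite strand over 1100 bp. LTO1 had 4858 counts in all 12 libraries together.

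Ccnd2 (ENSMUSG00000000184, chr6:127125779-127151048, minus strand) encodes cyclin D2, and its values ran the other way at the middle dose. It was at 75.8, 149 and 114 CPM in DMSO, 52.4, 103 and 95.8 CPM at 1 µM, 24.5, 54.6 and 71.9 CPM at 1.5 µM, and 64.0, 63.5 and 97.4 CPM at 3 µM. In every culture the lowest value was at 1.5 µM, and all 3 libraries of that dose were below all of DMSO, while the 3 µM libraries overlapped DMSO. Its antisense neighbours Gm43126 and 9330179D12Rik had 0 and 31 counts in all libraries together. The log2 fold change of Ccnd2 at 1.5 µM was -1.17 ± 0.41 and was not called (adjusted p = 0.0575). With the culture as a block it fell by 1.23 (adjusted p = 0.00283), and it was also called by DESeq2 (adjusted p = 0.0116). It was called, too, without replicate 3 at 1.5 µM (0.0358), replicate 1 of DMSO (0.0410) or culture 1 (0.0490), and with RLE scaling (0.0495). It was not called with library size as the only scaling (0.0652), without the filter (0.0946) or in a fit of only the groups compared (0.0931). Under the block Ccnd2 was called in both neighbouring steps, at -0.78 from 1 to 1.5 µM (adjusted p = 0.0430) and 0.68 from 1.5 to 3 µM (adjusted p = 0.0406). At 3 µM against DMSO the log2 fold change was -0.59 ± 0.40 (adjusted p = 0.231, and 0.0591 with the block).

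Ccnd3 (ENSMUSG00000034165, chr17:47505051-47599691, plus strand) encodes cyclin D3, the third D cyclin. Its 12 libraries stayed between 29.8 and 52.2 CPM, and the 4 groups overlapped. Its log2 fold change was -0.27 ± 0.19 at 1 µM, -0.34 ± 0.19 at 1.5 µM and 0.01 ± 0.19 at 3 µM (adjusted p = 0.967). With library size as the only scaling the value at 3 µM was -0.19, a setting that moved the median of all genes from -0.03 to -0.23. Ccnd3 overlaps Bysl on the opposite strand over 361 bp of exon, and no strand setting of the counting is given in the sources used here.

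Levels of different genes are compared per kilobase of exon, and on that scale Ccnd1 was the most abundant D cyclin in every library. Of D cyclin RNA, Ccnd1 made up 65.2 ± 10.8% in DMSO (SD, n = 3), 69.8 ± 5.76% at the lowest dose, 87.8 ± 3.00% at 1.5 µM and 89.2 ± 3.00% at 3 µM. The Ccnd2 share was 24.4 ± 8.58% in DMSO and 6.60 ± 2.68% at 3 µM, and the Ccnd3 share 10.4 ± 2.24% and 4.17 ± 0.626%. The lowest Ccnd1 share at 3 µM, 85.9%, was above the highest in DMSO, 77.3%. The 3 genes summed to 49.9 ± 4.43 CPM per kilobase with vehicle, 43.0 ± 4.79 with 1 µM, 76.2 ± 13.3 with 1.5 µM and 125 ± 16.8 with 3 µM.

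**Figure D3:**
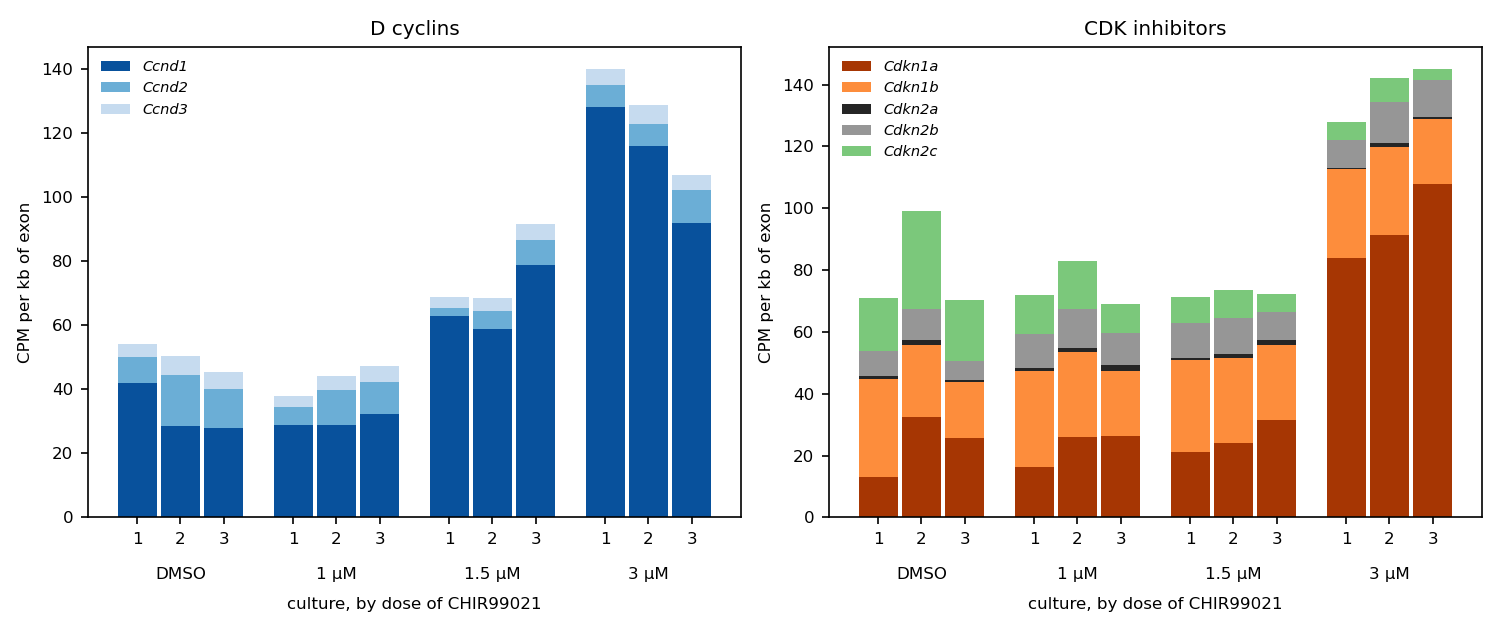
Stacked levels, in CPM per kilobase of exon, of the 3 D cyclins (left) and the 5 CDK inhibitors (right) in each of the 12 libraries, grouped by dose with the culture number under each bar. Ccnd1 fills most of the taller cyclin bars at 1.5 and 3 µM, and Cdkn1a most of the inhibitor bars at 3 µM, while the Cdkn2c segment shrinks from DMSO to 3 µM.

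Cdkn1a (ENSMUSG00000023067, chr17:29090979-29100722, plus strand) encodes p21, an inhibitor of CDK2 complexes and the best-known transcriptional target of p53. Both of its RefSeq promoters (build GRCm38.p6, 250 bases before to 50 bases after the start site) are shown because Cdkn1a was the inhibitor with the largest fitted increase at 3 µM. Promoter 1 spans chr17:29090729-29091028 and promoter 2 chr17:29093519-29093818, both on the plus strand and written 5′ to 3′. The capitals in promoter 1 mark a match to the p53 response element, and those in promoter 2 mark GC boxes (GGGCGG).
Cdkn1a promoter 1: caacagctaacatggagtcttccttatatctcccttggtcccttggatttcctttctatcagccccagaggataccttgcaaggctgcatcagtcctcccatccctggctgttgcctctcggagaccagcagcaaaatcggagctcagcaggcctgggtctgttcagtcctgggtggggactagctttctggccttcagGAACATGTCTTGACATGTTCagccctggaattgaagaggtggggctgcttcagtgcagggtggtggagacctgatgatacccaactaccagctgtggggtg
Cdkn1a promoter 2: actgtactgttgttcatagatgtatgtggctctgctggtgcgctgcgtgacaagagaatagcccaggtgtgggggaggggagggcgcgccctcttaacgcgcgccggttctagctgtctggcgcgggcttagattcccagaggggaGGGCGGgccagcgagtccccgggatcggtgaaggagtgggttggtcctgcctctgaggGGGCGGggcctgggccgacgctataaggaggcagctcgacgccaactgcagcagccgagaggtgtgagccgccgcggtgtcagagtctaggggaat
The element in promoter 1 is 20 bases long and begins 51 bases before the start site. It was searched as a pair of adjacent decamers of the p53 consensus with at most 1 mismatch, a limit set after the search without mismatches had found none in these genes. Of 32851 mouse promoters of the same length 29 (0.088%) hold such a match, and 3 hold it without a mismatch. GC boxes, on either strand, are in 35.7% of them, and in promoter 2 they begin 104 and 46 bases before the start. Gene counts do not tell which promoter the RNA came from, and a match of letters shows no binding.

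Cdkn1a was at 46.3, 116 and 91.8 CPM in DMSO of cultures 1, 2 and 3, at 58.2, 92.2 and 93.8 CPM at 1 µM, and at 75.3, 85.9 and 112 CPM at 1.5 µM. At 3 µM it was at 298, 325 and 383 CPM. The groups up to 1.5 µM overlapped throughout, and every 3 µM library was more than all of these. Fitted log2 fold changes were -0.05 ± 0.31 at 1 µM (adjusted p = 0.973), 0.11 ± 0.31 at 1.5 µM (adjusted p = 0.822) and 1.99 ± 0.32 at 3 µM (adjusted p = 0.000488), which is 3.97-fold. From 1.5 to 3 µM alone it rose by 1.88 ± 0.32 (3.69-fold, adjusted p = 0.00241), a call that held in all 12 fits without a single library. Without culture 2 in any group the adjusted p of that step was 0.0781. Within cultures 1, 2 and 3 the level at 3 µM was 6.44, 2.81 and 4.17 times that in DMSO.

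Cdkn1b (ENSMUSG00000003031, chr6:134920401-134925513, plus strand) encodes p27, the CIP/KIP inhibitor typical of resting cells and controlled in large part by protein breakdown. It was at 145, 106 and 81.2 CPM in DMSO, and between 95.4 and 142 CPM in the 9 treated libraries. Its groups overlapped, and the log2 fold change was 0.13 ± 0.22, 0.16 ± 0.22 and 0.10 ± 0.22 at 1, 1.5 and 3 µM (adjusted p from 0.616 to 0.882). The ratio of Cdkn1a to Cdkn1b per kilobase was 0.409, 1.40 and 1.45 in DMSO of cultures 1, 2 and 3, and 2.92, 3.22 and 5.15 at 3 µM.

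Cdkn2c (ENSMUSG00000028551, chr4:109660876-109667189, minus strand) encodes p18, an INK4 inhibitor of CDK4 and CDK6, and its RNA fell at 1.5 and 3 µM. Its RefSeq promoters are shown as the counterpart of those of Cdkn1a, promoter 1 at chr4:109666707-109667006 and promoter 2 at chr4:109665323-109665622, both on the minus strand and written 5′ to 3′ as transcribed. Capitals mark GC boxes in promoter 1 and an E-box (CACGTG), the letters that MYC with MAX is known to bind, in promoter 2.
Cdkn2c promoter 1: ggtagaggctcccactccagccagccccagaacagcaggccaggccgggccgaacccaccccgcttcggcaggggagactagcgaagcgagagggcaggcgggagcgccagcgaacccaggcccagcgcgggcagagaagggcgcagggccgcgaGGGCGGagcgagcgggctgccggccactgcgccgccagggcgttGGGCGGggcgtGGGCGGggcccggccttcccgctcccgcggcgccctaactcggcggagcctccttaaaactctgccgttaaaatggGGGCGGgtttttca
Cdkn2c promoter 2: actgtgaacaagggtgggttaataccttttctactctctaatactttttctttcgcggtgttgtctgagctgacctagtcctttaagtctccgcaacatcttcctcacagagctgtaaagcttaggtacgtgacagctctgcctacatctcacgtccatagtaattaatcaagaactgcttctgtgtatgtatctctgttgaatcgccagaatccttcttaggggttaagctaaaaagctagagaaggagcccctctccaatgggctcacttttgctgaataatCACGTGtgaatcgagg
The GC boxes of promoter 1 begin 95, 51 and 40 bases before and 37 bases after the start site. The E-box begins 35 bases after the start of promoter 2, and 7.2% of all promoters of this length hold one. Promoter 1 is 73.3% G and C and promoter 2 is 44.0%, against a median of 52.7% over all promoters. Windows of 7 of the 10 genes were searched (Mycn, Ccnd3, Cdkn1a, Cdkn1b, Cdkn2a, Cdkn2b and Cdkn2c). TCF/LEF sites, through which β-catenin acts, were searched on both strands as CTTTG followed by a pair of letters that are each A or T, which 16.9% of promoters hold. They matched in Mycn, beginning 14 bases before the start, and in Ccnd3, 44 bases after it. E2F sites, searched as TTTCCCGC, TTTGGCGC, TTTCGCGC and TTTGCCGC (2.27% of promoters), matched in Mycn and in the second promoter of Cdkn2a. No match of one motif overlapped that of another.

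Cdkn2c was at 46.0, 85.0 and 53.3 CPM in DMSO and at 34.7, 41.9 and 25.6 CPM at 1 µM in cultures 1, 2 and 3. At 1.5 µM it was at 22.8, 24.5 and 15.6 CPM, and at 3 µM at 16.4, 20.3 and 8.83 CPM. All treated libraries were below all DMSO libraries, and in each culture each dose had less than the dose before it. Fitted values were a log2 fold change of -0.85 ± 0.33 at 1 µM (adjusted p = 0.358), -1.55 ± 0.34 at 1.5 µM (adjusted p = 0.00854) and -2.02 ± 0.35 at 3 µM (adjusted p = 0.000757). Expressed as folds, Cdkn2c was 2.92-fold lower at 1.5 µM and 4.05-fold lower at 3 µM. With the culture as a block it was called at 1 µM too (adjusted p = 0.0324), as the single gene of the 10, where the block called 5.61% of all genes. The step from 1 to 1.5 µM was -0.70 on the log2 scale, not called in the fit without the block (adjusted p = 0.261) and called with it (adjusted p = 0.0256). At 1.5 µM against DMSO the call was lost without culture 1 (adjusted p = 0.0651) or culture 2 (adjusted p = 0.0971).

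Cdkn2b (ENSMUSG00000073802, chr4:89306289-89311032, minus strand) encodes p15, an INK4 inhibitor known to respond to TGF-β. It was at 11.5, 14.2 and 8.45 CPM in DMSO, 15.0, 17.3 and 14.5 CPM at 1 µM, 15.7, 16.0 and 12.7 CPM at 1.5 µM, and 12.4, 18.5 and 17.0 CPM at 3 µM. On the TMM scale each treated library was above the DMSO library of its own culture, though the groups at 1.5 and 3 µM overlapped DMSO. In culture 1 the order of DMSO and 3 µM rests on that scaling. The raw counts there were 260 of 21.7 M in DMSO and 158 of 14.6 M at 3 µM, a lower share at 3 µM. The log2 fold change at 3 µM was 0.49 ± 0.21 and was not called (adjusted p = 0.0695), but with the culture as a block Cdkn2b was called at 0.51 (adjusted p = 0.0238). Without replicate 2 of DMSO or replicate 1 at 3 µM it was called as well (adjusted p = 0.0279 and 0.0405), the 2 of 12 fits without a single library that called it. With library size as the only scaling the value at 3 µM was 0.29 and not called (adjusted p = 0.246).

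Cdkn2a (ENSMUSG00000044303, chr4:89274471-89294653, minus strand) gives rise to p16 and, from another first exon and reading frame, to p19ARF, which protects p53. Its gene count adds both transcripts, so that they cannot be told apart here. It had 17 to 19 counts in DMSO, 21 to 36 at 1 µM, 11 to 40 at 1.5 µM and 6 to 23 at 3 µM, or 0.470 to 2.04 CPM over all libraries. The groups overlapped, and the log2 fold change at 3 µM was -0.35 ± 0.52 (adjusted p = 0.577). Counts this low limit what could be detected.

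The 5 inhibitors together reached 80.2 ± 16.4 CPM per kilobase with vehicle, 74.7 ± 7.25 with 1 µM, 72.3 ± 1.12 with 1.5 µM and 138 ± 9.02 with 3 µM (SD, n = 3). The sums of the first 3 groups overlapped, while the makeup differed. The share of Cdkn2c was 28.1 ± 3.91% with vehicle and 16.8 ± 2.67%, 10.8 ± 2.40% and 4.11 ± 1.62% with the 3 doses in turn. Cdkn1a held 29.3 ± 9.69% in DMSO, 35.4 ± 7.29% at 1.5 µM and 68.1 ± 5.50% at 3 µM. Cdkn1b, whose own level was not called different, held 31.2 ± 11.9% in DMSO, 37.6 ± 3.95% at 1.5 µM and 19.0 ± 4.08% at 3 µM. The INK4 genes Cdkn2b and Cdkn2a held 8.25 ± 1.22% and 0.535 ± 0.307% at 3 µM.

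Ranked per kilobase of exon in DMSO, the order was Ccnd1 (32.8 CPM), Cdkn1b (24.3), Cdkn1a (23.8), Cdkn2c (22.9), Myc (16.6), Ccnd2 (12.0), Cdkn2b (8.20), Ccnd3 (5.14), Cdkn2a (0.991) and Mycn (0.209). The libraries of each of the first 6 genes overlapped those of the next in this order, and the last 4 genes were separated from each other. At 3 µM Ccnd1 (112) and Cdkn1a (94.4) headed the order and overlapped. Myc (69.3) and Cdkn1b (26.0) followed, each apart from its neighbours. Cdkn2b (11.5), Ccnd2 (7.97), Cdkn2c (5.64) and Ccnd3 (5.17) overlapped from each to the next, and Cdkn2a (0.749) and Mycn (0.0454) were last. Cdkn2c held rank 4 in DMSO and rank 7 at 3 µM. Levels per kilobase rest on the union of GENCODE M21 exons, and a gene that uses fewer exons is set too low.

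The 3 cultures differed in the level of 4 of the 10 genes at a given dose, against 28.8% of all genes. These were Cdkn1b (adjusted p = 0.00625), Cdkn2c (adjusted p = 0.0158), Ccnd2 (adjusted p = 0.0219) and Cdkn1a (adjusted p = 0.0394). Relative to culture 1, Ccnd2 was higher by 0.77 log2 units in culture 2 and by 0.89 in culture 3. Cdkn1a was higher by 0.57 and 0.63 log2 units in the same cultures, while Cdkn1b differed by -0.19 and -0.54. Among these 4 genes, Cdkn2c was the one for which cultures 2 and 3 lay on opposite sides of culture 1, at 0.39 and -0.39. The summed fibroblast markers given above were lowest in culture 1 and highest in culture 3, and their part in these differences was not tested. The dose slope differed between cultures for 0 of 10 genes and 0% of all genes. This test fits a straight line to the 4 libraries of each culture, which limits what it could detect, and 0 calls do not show that the cultures responded alike. The lowest unadjusted p for a member was 0.195, for Cdkn2c.

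For each gene with a called slope, the genes whose log2 CPM followed it most closely over the 12 libraries were sought among 12439 genes, with Pearson's r as the measure. These correlations share the libraries and the dose series, and are given as a description. Myc was followed by Atad3a (r = 0.988), which encodes a mitochondrial membrane protein, Mybbp1a (0.985), a nucleolar protein, and Tube1 (0.985), a tubulin. Mybbp1a was at 155 ± 13.9 CPM in DMSO and 480 ± 28.1 CPM at 3 µM. Ccnd1 was followed by Mcm4 (0.985), a subunit of the replicative helicase, Wee1 (0.976), a kinase that restrains entry to mitosis, and Gemin2 (0.976), a factor of spliceosome assembly. Mcm4 was at 35.7 ± 4.37 and 37.3 ± 4.28 CPM in DMSO and at 1 µM, and at 135 ± 32.6 CPM at 3 µM. Cdkn1a was followed by Sept5 (0.988), a septin, Zmat3 (0.981), itself a known p53 target, and Eprs (0.970), a tRNA synthetase. Zmat3 shared the late response, at 51.9 ± 11.7 CPM in DMSO, 56.1 ± 3.96 CPM at 1.5 µM and 136 ± 24.4 CPM at 3 µM. Cdkn2c was followed by Tdrp (0.991), Insig1 (0.988), a regulator of sterol synthesis, and Ivd (0.985), an enzyme of leucine breakdown. Insig1 was at 476 ± 273 CPM in DMSO and 71.5 ± 33.4 CPM at 3 µM.

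The genes around the 10 regulators were taken from lists of their partners and targets, and each list is described by its counts and its median beside all genes. The median log2 fold change of all genes tested was -0.03 at 3 µM, where 29.9% of all genes were called higher and 27.7% lower. Of 20 partners at the G1/S transition (kinases, E and A cyclins, the RB family and E2F factors), 15 rose and 3 fell at 3 µM, with a median of 1.14. E2f8, an atypical E2F that damps replication genes late in S phase, was at 5.42, 5.38 and 3.50 CPM in DMSO of the 3 cultures and at 40.2 ± 14.1 CPM at 3 µM (log2 fold change 3.08 ± 0.31, adjusted p = 2.90e-05). Ccna2, the cyclin of S phase, was at 14.2 ± 2.05 and 80.6 ± 46.4 CPM (2.51 ± 0.40, adjusted p = 0.000496). It overlaps Exosc9 on the opposite strand.

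Rb1, which encodes the protein that cyclin D kinases inactivate, was the partner that decreased most. It was at 522, 470 and 627 CPM in DMSO of cultures 1, 2 and 3, at 452, 415 and 538 CPM at 1 µM, at 205, 210 and 258 CPM at 1.5 µM, and at 61.3, 58.0 and 65.5 CPM at 3 µM. The groups at 1.5 and 3 µM lay below DMSO and apart from each other. Its log2 fold change was -1.27 ± 0.14 at 1.5 µM (adjusted p = 0.000426) and -3.13 ± 0.15 at 3 µM (adjusted p = 8.92e-07). Rb1 overlaps Rcbtb2 and Lpar6 on the opposite strand. Tfdp2, a partner of E2F factors, fell by 1.07 ± 0.11 (adjusted p = 2.37e-05). The third gene that fell was Rbl2, a relative of Rb1, at -0.93 on the log2 scale (adjusted p = 4.19e-05), and it was named after its value was seen.

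At 1.5 µM 13 of the 20 partners rose and 3 fell, where 15.4% of all genes were called higher and 11.8% lower. That count depended on the libraries, since without culture 1 it was 2 and 1, and without culture 2 it was 0 and 1. Single libraries also moved it, to 8 and 2 or 9 and 1 without the 1.5 µM library of culture 1 or 2, and to 8 and 1 without the DMSO library of culture 3. At 3 µM 12 to 15 rose and 3 fell in each of 21 alternative fits.

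Of 9 genes for other CDK inhibitors or for the turnover of inhibitors and cyclins, 3 rose and 3 fell at 3 µM (median 0.32). These counts are near the shares of all genes (29.9% higher and 27.7% lower), and are not a result about this list. Skp2, part of the ubiquitin ligase that removes p27, was at 6.88 ± 1.23 CPM in DMSO and 18.2 ± 4.17 CPM at 3 µM (1.40 ± 0.27, adjusted p = 0.00138). Cks1b, its cofactor, was at 28.4 ± 1.68 and 51.8 ± 9.75 CPM (0.86 ± 0.12, adjusted p = 0.000236). Fbxo4 and Fbxo31, both described as ligase subunits that target cyclin D1, fell by 1.68 ± 0.27 (adjusted p = 0.000505) and 0.52 ± 0.12 (adjusted p = 0.00366). Without culture 1 Fbxo31 was not called (adjusted p = 0.0771). Across the alternatives 2 to 4 genes of this list rose and 1 to 4 fell.

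In the MYC/MAX/MXD network, whose MXD members compete with MYC for MAX, 4 of 11 genes rose and 2 fell at 3 µM (median 0.29). Mxd1 was at 26.4 ± 3.66 CPM in DMSO, 31.0 ± 3.27 CPM at 1.5 µM and 73.5 ± 22.4 CPM at 3 µM (1.47 ± 0.20, adjusted p = 0.000175). Mxi1 rose by 1.29 ± 0.18 (adjusted p = 0.000173). Mxd4 was at 244 ± 2.33 CPM in DMSO and 52.1 ± 18.8 CPM at 3 µM (-2.23 ± 0.24, adjusted p = 3.88e-05), and Mlxip, a sensor of glucose metabolites, fell by 0.48 ± 0.10 (adjusted p = 0.00217). The counts of 4 and 2 of 11 are near the shares of all genes (29.9% higher and 27.7% lower), and are not a result about this network. Across the alternatives 2 to 6 genes of this network rose and 2 to 3 fell.

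Of 25 commonly used MYC targets (ribosome biogenesis, nucleotide and polyamine synthesis), 20 rose at 1.5 µM, where 15.4% of all genes were called higher. At 3 µM 23 rose, where 29.9% of all genes were called higher. None of the 25 fell at either dose. The median was 0.90 at 1.5 µM and 1.50 at 3 µM. Nop56, a core protein of small nucleolar particles, was at 50.7 ± 3.32 CPM in DMSO and 199.7 ± 25.4 CPM at 3 µM (1.98 ± 0.12, adjusted p = 1.80e-06). Gnl3, or nucleostemin, was at 45.5 ± 2.23 and 167 ± 8.82 CPM (1.87 ± 0.11, adjusted p = 1.76e-06). The genes not called at 3 µM were Odc1 at 0.73 (adjusted p = 0.0905) and Tfrc at 0.40 (adjusted p = 0.380), named after their values were seen. Without culture 2 the count at 1.5 µM was 11, while at 3 µM it was 23 to 24 in each of 21 alternative fits. At 1 µM edgeR called 0 of 25 (11 at an unadjusted p below 0.05), 6 were called higher with the culture as a block, and DESeq2 called 7. Nop56 and Gnl3 host small nucleolar RNAs in their introns and overlap Idh3b and Pbrm1 on the opposite strand.

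Of 20 p53 targets other than Cdkn1a, 2 rose and 2 fell at 1.5 µM (median -0.26), where 15.4% of all genes were called higher and 11.8% lower. These counts at 1.5 µM are near the shares of all genes, and are not a result about this list. At 3 µM 9 rose and 3 fell (median 0.30), where 29.9% of all genes were called higher and 27.7% lower. Across the 21 alternatives 6 to 10 rose and 1 to 4 fell at 3 µM. The count at 1.5 µM was 5 higher and 7 lower with the culture as a block, 2 and 5 with DESeq2, 2 and 0 without culture 1 or without replicate 1 at 1.5 µM, and 1 and 0 without culture 2. From 1.5 to 3 µM 11 rose and 0 fell, with a median of 0.62 against -0.0028 for all genes, where 17.0% of all genes were called higher. That count was 6 without culture 1 and 5 without culture 2. Pmaip1, which encodes the death-promoting protein NOXA, was at 3.03 ± 0.555 CPM in DMSO, 9.96 ± 0.973 CPM at 1.5 µM and 53.6 ± 6.47 CPM at 3 µM (4.15 ± 0.22, adjusted p = 1.48e-06). Perp, a membrane protein of desmosomes that stratified epithelia also express, was at 184 ± 89.1 CPM in DMSO and 2537 ± 141 CPM at 3 µM (3.79 ± 0.32, adjusted p = 9.84e-06). Bbc3, which encodes the related protein PUMA, fell by 1.06 ± 0.23 (adjusted p = 0.00291), and the death receptor gene Fas by 0.94 ± 0.30 (adjusted p = 0.0200). Fas was not called without culture 2 (adjusted p = 0.130). Mdm2, the gene of the main p53 inhibitor and a p53 target, was not called against DMSO at 3 µM (0.17, adjusted p = 0.215). From 1.5 to 3 µM it rose by 0.43 (adjusted p = 0.0178). It was chosen after its values were seen. Of the 7 squamous markers, 7 were called higher than DMSO at 1.5 µM. From 1.5 to 3 µM 1 of 7 was called higher, with a median log2 fold change of 1.31. In that step their sums climbed in cultures 1, 2 and 3, from 3777, 4091 and 1122 CPM to 17760, 13716 and 1869 CPM. Their part in the values of Cdkn1a and the p53 targets was not tested.

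Of 14 proliferation genes 14 rose at both 1.5 µM (median 1.76) and 3 µM (median 2.45), where 15.4% and 29.9% of all genes were called higher. At 1 µM edgeR called 0 of the 14 (0 at an unadjusted p below 0.05, and 0 by DESeq2), against 0.242% of all genes. Ccnb1, the mitotic cyclin, was at 8.74 ± 1.09, 9.43 ± 0.272, 31.9 ± 2.73 and 64.6 ± 36.3 CPM over the 4 groups (2.89 ± 0.39 at 3 µM, adjusted p = 0.000185). Plk1, a mitotic kinase, was at 5.96 ± 0.969 CPM in DMSO and 39.7 ± 23.2 CPM at 3 µM (2.74 ± 0.41, adjusted p = 0.000324). At 3 µM 14 of 14 were called in each of 21 alternative fits, while at 1.5 µM the count was 4 without culture 1 and 3 without culture 2. Cdkn1a and the proliferation genes were therefore both above DMSO in the 3 µM libraries, while at 1.5 µM the proliferation genes were higher and Cdkn1a was not called. Whether the same cells carry both RNAs cannot be told from bulk libraries.

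**Figure D4:**
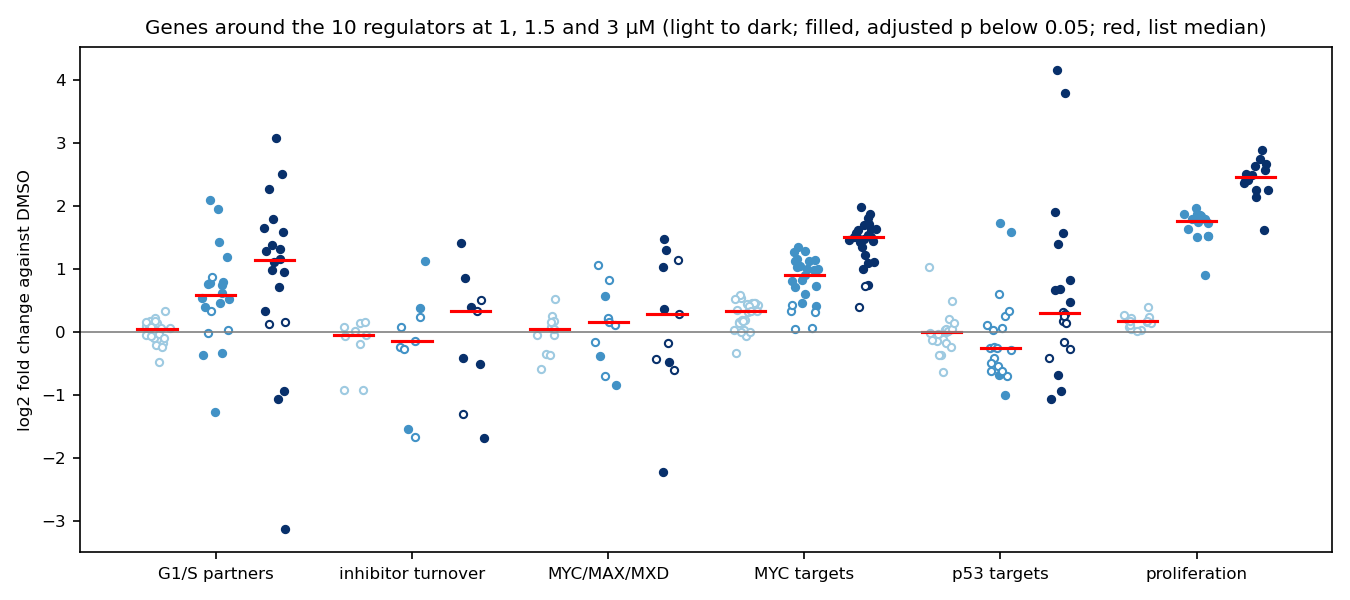
Log2 fold change against DMSO (vertical axis) of each tested gene of 6 lists at 1, 1.5 and 3 µM (light to dark blue, left to right within a list), with filled points for an adjusted p below 0.05 and a red bar at the list median. MYC targets and proliferation genes shift upward together, with medians of 1.50 and 2.45 at 3 µM, while G1/S partners reach from -3.13 (Rb1) to 3.08 (E2f8) and p53 targets from -1.06 to 4.15.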

How the data were processed

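Polyadenylated RNA of 12 libraries (3 cultures from 3 animals, each under 4 treatments for 7 days) was sequenced with a stranded Illumina TruSeq protocol, per the labels' protocols. TopHat2 2.1, Bowtie 1.1.0, HTSeq and DESeq2 and the builds GRCm38 and mm10 are named in the submitters' processing notes. The annotation release and the strand setting of the counting are not given in the sources used here. The authors deposited raw read counts per gene, which were used for every test. The authors also deposited log2 values, which equal the log2 of the count scaled to 10 M plus a pseudocount of 1 (0 values differed at a tolerance of 1e-09), and these were not used further. No sample column was left unmapped.

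From the counts, genes were filtered with filterByExpr on the 4 groups (15316 of 25210 genes kept), scaled by TMM (trimmed mean of M values) and tested with edgeR 4.0.16 (R 4.3.3) in a quasi-likelihood model of the group means over all 12 libraries, and in a second model with a slope per µM. Adjusted p-values are Benjamini-Hochberg values over all genes tested, with a threshold of 0.05. In the main fits they set dose effects against the spread between cultures within a dose. That spread holds the differences between animals, since these fits treat the libraries as independent and leave the pairing by animal unused. The fitted coefficient of variation common to all genes was 0.305 without a term for the culture and 0.156 with the culture as a block. The same-numbered libraries come from one animal, as the series' design states. Their deviations from the group means correlated at 0.177 to 0.840 in 18 pairs (median 0.505), against a median of -0.21 in 36 pairs of unlike number, so the culture was fitted as a block in an alternative. Differences between cultures were tested with culture terms and culture-by-dose slopes in edgeR. Alternatives were the block, DESeq2 1.42.0, RLE scaling, library size only, no filter, a fit of only the groups compared, and leaving out each library or culture. The list counts under every alternative were added after seeing the data. The edgeR models of group means and of culture differences were first run on simulated data without a culture effect. Recovery was scored there for the highest dose against DMSO only, and the slope was not scored. The block, DESeq2, RLE, library-size and no-filter fits were not run on simulated data.

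The 10 genes and the lists were chosen with earlier results of these data known. From each list, the text names the 2 genes with the largest increase and the 2 with the largest decrease at 3 µM among those called, changed in 1 direction in all cultures and averaging at least 50 counts. Likeness was ranked by Pearson's r of log2 CPM (prior count 2) for members with a called slope, leaving out other members and overlapping genes. Genes named outside these rules are marked in the text. Gene coordinates are the deposited ones. Of the gene IDs, 24902 were matched to GENCODE M21, with 95.3% of starts within 1000 bp, and exon lengths and overlaps were taken from it. Promoter sequences are from RefSeq (GRCm38.p6), which matched 7 of the 10 genes. The floor behind a count of 0 is 3 counts and covers counting error only.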

Additional observations from a re-analysis of the deposited data

How the results depend on the processing

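Over 60 fold changes and slopes of the 10 genes (15 called) and 1248 alternative values, 1210 stayed on the same side of the threshold, 18 lost and 20 gained a call, and 0 called values reversed. Among the 1210, 55 values called in neither fit changed sign, with sizes of at most 0.48. With the replicate block, 1 gene was called at 1 µM against DMSO (0 as reported), 4 from 1 to 1.5 µM (2) and 4 from 1.5 to 3 µM (2), and the block changed no count of the 10 genes by over 1.5 times elsewhere. With library size only, 1 gene was called from 1.5 to 3 µM, where that setting moved the median of all genes to -0.28. Leaving out libraries or cultures gave 1 to 4 called genes at 1.5 µM against DMSO, 0 to 2 from 1 to 1.5 µM and 0 to 3 from 1.5 to 3 µM. The lowest counts came without culture 2, and for the step from 1 to 1.5 µM also without culture 1 or replicate 2 at 1 µM. Fits without a culture have fewer samples. Mycn and Cdkn2a had at most 28 and 40 counts in a library, which limits what could be detected for them.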
